A study of Mus musculus with 16 samples.

Results

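The genes described here are 5 of the 17003 genes of the deposited liver table: the metallothioneins Mt1 and Mt2, the zinc importer gene Slc39a14, the zinc exporter gene Slc30a1, and Mtf1. Mtf1 encodes the metal-sensing regulator of Mt1, Mt2 and Slc30a1. The 5 genes were chosen by symbol, for their function, and all 5 passed the filter on low values (0.1 FPKM or more on average) that left 12770 genes for the comparison of genotypes. FPKM counts fragments per length of transcript, scaled to the size of the library, so that levels may be compared between genes.

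Liver RNA was sequenced from 8 Fgl1 LWT and 8 Fgl1 LKO mice, all males of 8 weeks on the chow SAFE A04 and labelled as fed. Both genotypes carried the floxed Fgl1 alleles, made by removing the EUCOMM cassette with FLPO. The Fgl1 LKO mice also carried CRE under the albumin promoter, and the study describes the resulting deletion as specific to hepatocytes. The Fgl1 LWT mice were littermates without CRE, so that the deletion and the presence of CRE cannot be told apart. The methods of the study give 7 mice per genotype, whereas the table holds 8 of each, and all 16 were used. Mice are named below by the number in their labels, and the numbers in the library names form 4 runs (36 to 38, 48 to 55, 60 to 64, and 69 to 72), of which the first holds Fgl1 LWT mice only.

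Metallothioneins are small, cysteine-rich proteins that hold zinc and copper in the cytosol. Hepatocytes make more of them when zinc enters the cell, and also in response to glucocorticoids and to the acute-phase cytokine IL-6. Zinc enters through ZIP proteins, among them ZIP14 (Slc39a14), which also carries iron and manganese, and leaves through ZnT proteins, of which ZnT1 (Slc30a1) lies in the plasma membrane. The factor MTF1 binds zinc and then attaches to metal response elements in the promoters of Mt1, Mt2 and Slc30a1.

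The Mt1 and Mt2 genes lie side by side on the plus strand of chromosome 8 (GRCm39, GENCODE vM39). Mt2 spans 94898819 to 94900207 and Mt1 spans 94905710 to 94906955, with 5502 bases between them. Slc39a14 lies on the minus strand of chromosome 14 (70540678 to 70588914), Slc30a1 on the plus strand of chromosome 1 (191638808 to 191645361), and Mtf1 on the plus strand of chromosome 4 (124695897 to 124743593). The sequence before the RefSeq start of both metallothionein genes is shown because these genes varied together over the mice. It is taken from the RefSeq promoter windows of 250 bases, which matched GRCm39 at 1 place each, and stops before the first exon that the annotation begins inside the window. The Mt2 stretch lies inside the Mt2 span given above, because GENCODE starts 2 Mt2 transcripts upstream of it, at 94898819. Capitals mark the core of the metal response element, TGCACNC or TGCGCNC.
Mt1, chr8:94905467-94905709, plus strand: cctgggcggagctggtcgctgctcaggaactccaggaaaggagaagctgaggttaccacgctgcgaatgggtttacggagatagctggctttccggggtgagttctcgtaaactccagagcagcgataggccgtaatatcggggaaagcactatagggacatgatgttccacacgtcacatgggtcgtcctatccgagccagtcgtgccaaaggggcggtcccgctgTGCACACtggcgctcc
Mt2, chr8:94898996-94899131, plus strand: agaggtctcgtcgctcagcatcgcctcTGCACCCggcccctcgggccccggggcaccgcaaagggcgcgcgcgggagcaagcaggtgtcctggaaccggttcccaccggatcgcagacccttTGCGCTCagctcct

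The core was searched for on both strands of the 250 bases before the RefSeq start. The Mt1 window held 1 core, 23 bases before the start, and the Mt2 window held 3, at 223, 128 and 50 bases before it. The Slc30a1 window held 1, at 43 bases, and the Mtf1 window held none. Of 32851 promoters searched in the same way, 21.4% held at least 1 core and 5.17% held 2 or more, so that a single core is a frequent match. The STAT word TTCNNNGAA was in none of these 4 windows and in 7.02% of all promoters. The antioxidant response element word TGACNNNGC was in the Mt2 window (79 bases before the start) and in the Slc30a1 window (82 bases before it), against 10.2% of all promoters. None of these matches overlapped a match of another motif. Further cores reached past the RefSeq start, within the 50 bases after it: 2 for Mt1, 1 for Mt2, 1 for Slc30a1 and 0 for Mtf1. The share of all promoters with such cores was not counted. The 3 Mt2 cores and the Slc30a1 core before the RefSeq start lay inside the GENCODE gene spans, which begin at 94898819 and 191638808. A match of letters is a description of the window and not of binding. GENCODE starts 3 of its 4 Mt1 transcripts at 94905710 and 1 at 94905869. For Mt2, it starts 2 transcripts at 94898819, 6 at 94899132, 1 at 94899200 and 1 at 94899488. Other starts would have other windows.

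The labels were checked with Fgl1 itself. Fgl1 lay between 157.8 and 1331 FPKM in the Fgl1 LWT livers and between 13.23 and 89.99 FPKM in the Fgl1 LKO livers, with no overlap, as in 0.0157% of the genes tested (2 of 12770). Its log2 fold change, on the log2(FPKM + 1) scale used throughout, was -3.11 (SE 0.49), with an exact permutation p of 0.000155, the smallest that 8 mice against 8 allow, and an adjusted limma p of 0.0725. The 7 hepatocyte markers, among them Apoa1, Ttr and Apoc3, summed to between 21680 and 33030 FPKM in each liver. Pancreatic acinar genes were at or near 0 except Cela1. No gene of the table passed an adjusted p of 0.05 between genotypes (0.0% of 12770), and 895 genes (7.01%) had an unadjusted p under 0.05.

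Mt1 and Mt2 were the most variable of the 5 genes, and their spread lay within both genotypes. Within genotypes, Mt1 had a standard deviation of 2.09 (log2 scale), rank 7 of 12770 genes, and Mt2 of 2.39, rank 5, whereas the median gene had 0.171. Slc39a14 followed with 0.563 (2.47% of genes had a larger value), and Slc30a1 (0.185) and Mtf1 (0.169) were close to the median gene.

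In the Fgl1 LWT mice 1 to 8, Mt1 was at 184.45, 99.24, 75.64, 41.47, 1231.31, 70.16, 881.38 and 95.29 FPKM. In the Fgl1 LKO mice 1 to 8, it was at 196.67, 152.54, 60.55, 17.98, 668.1, 368.52, 473.58 and 4643.86 FPKM. LWT mice 5 and 7 and LKO mouse 8 were the highest, LKO mouse 4 was the lowest, and the genotypes overlapped from 41.47 to 1231.31 FPKM. The median was 97.27 FPKM in Fgl1 LWT livers and 282.6 FPKM in Fgl1 LKO livers, and 6 of 8 Fgl1 LKO mice lay above the Fgl1 LWT median. The mean was 334.9 ± 456.9 FPKM (SD, n = 8) against 822.7 ± 1559 FPKM (SD, n = 8). The difference was not larger than the spread between mice, with a log2 fold change of 0.68 (SE 0.93, 95% interval -1.29 to 2.64) and an adjusted limma p of 0.876 (exact permutation test, p = 0.529). This interval runs from 0.41-fold to 6.24-fold. Without LKO mouse 8, the log2 fold change of Mt1 was 0.08.

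Mt2 encodes the second of the widely expressed metallothioneins. In the Fgl1 LWT mice 1 to 8, Mt2 was at 57.21, 34.2, 25.99, 14.29, 896.08, 43.57, 394.81 and 40.82 FPKM. In the Fgl1 LKO mice 1 to 8, it was at 103.55, 96.43, 20.07, 7.41, 512.04, 175.4, 330.09 and 3571.07 FPKM. LKO mouse 8 and LWT mouse 5 were again the highest, LKO mouse 4 was the lowest, and the genotypes overlapped. The median was 42.2 FPKM in Fgl1 LWT livers and 139.5 FPKM in Fgl1 LKO livers, and the mean was 188.4 ± 312.6 FPKM (SD, n = 8) against 602 ± 1212 FPKM (SD, n = 8). The log2 fold change was 1.05 (SE 1.06, 95% interval -1.19 to 3.29), with an adjusted limma p of 0.817 (exact permutation test, p = 0.39), and it was 0.39 without LKO mouse 8. The interval runs from 0.44-fold to 9.8-fold, so that differences of several-fold lie within it.

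Slc39a14 encodes the ZIP14 importer and had the highest mean of the 14 ZIP genes. In the Fgl1 LWT mice 1 to 8, it was at 52.87, 50.42, 47.43, 47.6, 88.41, 46.37, 43.6 and 32.31 FPKM. In the Fgl1 LKO mice 1 to 8, it was at 53.85, 65.06, 44.42, 33.41, 71.93, 48.88, 75.6 and 169.96 FPKM. LKO mouse 8 and then LWT mouse 5 were the highest, but LWT mouse 7, which had the third highest Mt1, was below the Fgl1 LWT median of 47.52 FPKM. The mean was 51.13 ± 16.27 FPKM (SD, n = 8) in Fgl1 LWT livers and 70.39 ± 42.68 FPKM (SD, n = 8) in Fgl1 LKO livers. The log2 fold change of 0.34 (SE 0.25, 95% interval -0.19 to 0.87) did not pass the test, with an adjusted limma p of 0.769 (exact permutation test, p = 0.262), and it was 0.14 without LKO mouse 8.

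Slc30a1 encodes ZnT1, which exports zinc from the cell. In the Fgl1 LWT mice 1 to 8, it was at 8.2, 8.05, 5.96, 6.18, 7.4, 6.28, 8.28 and 7.9 FPKM. In the Fgl1 LKO mice 1 to 8, it was at 5.34, 5.68, 6.07, 6.15, 7, 8.17, 8.04 and 6.65 FPKM. The whole range over the 16 mice was 1.55-fold, against 258-fold for Mt1, and LKO mouse 8 lay close to the Fgl1 LKO mean, whereas LWT mouse 7, the third highest in Mt1, was the highest in Slc30a1. The mean was 7.28 ± 0.98 FPKM (SD, n = 8) against 6.64 ± 1.04 FPKM (SD, n = 8), with a log2 fold change of -0.12 (SE 0.09, 95% interval -0.31 to 0.07) and an adjusted limma p of 0.777 (exact permutation test, p = 0.212).

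Mtf1 encodes the zinc-sensing transcription factor. In the Fgl1 LWT mice 1 to 8, it was at 1.84, 2.54, 2.5, 2, 2.6, 2.45, 2.34 and 1.64 FPKM. In the Fgl1 LKO mice 1 to 8, it was at 2.67, 2.78, 2.14, 2.52, 3.41, 2.06, 2.26 and 2.58 FPKM. LKO mouse 5 was the highest and LWT mouse 8 the lowest, and the genotypes overlapped. The mean was 2.24 ± 0.36 FPKM (SD, n = 8) against 2.55 ± 0.43 FPKM (SD, n = 8), with a log2 fold change of 0.13 (SE 0.09, 95% interval -0.05 to 0.31) and an adjusted limma p of 0.729 (exact permutation test, p = 0.139). None of the 5 genes passed an adjusted or an unadjusted limma p of 0.05 between genotypes, against 0.0% and 7.01% of all genes. In whole liver RNA, fewer cells of a type and less RNA per cell cannot be told apart.

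**Figure D1:**
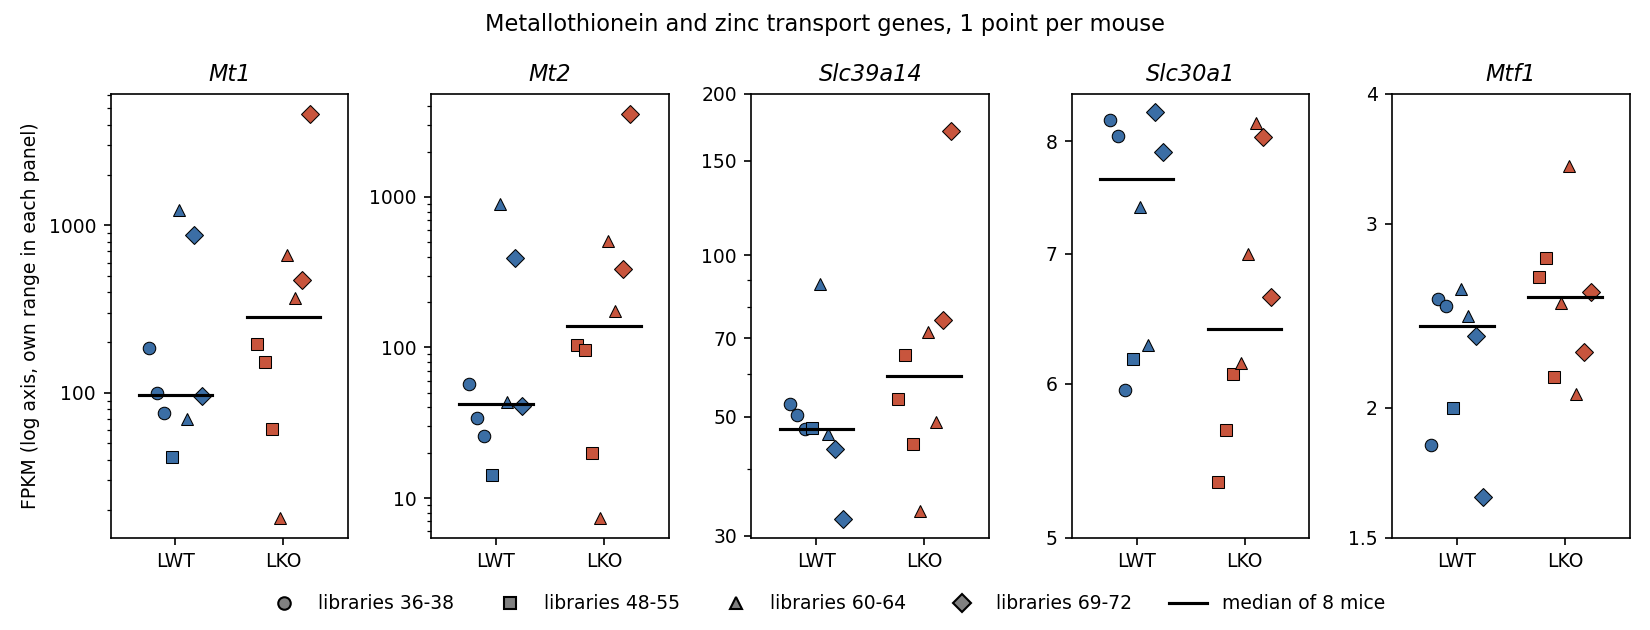
FPKM of the 5 genes (log axis, with its own range in each panel) in Fgl1 LWT (blue) and Fgl1 LKO (red) livers, with 1 point per mouse, the symbol giving the run of library numbers and the bar the median of 8 mice. Mt1 and Mt2 spread over 258-fold and 482-fold with both genotypes intermixed, whereas Slc30a1 spread over 1.55-fold.

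The order of the levels was Mt1, Mt2, Slc39a14, Slc30a1 and Mtf1 by the mean over all mice (578.8, 395.2, 60.76, 6.96 and 2.4 FPKM). Mt1 was above Mt2 in 16 of 16 livers, Slc39a14 above Slc30a1 in 16 of 16, and Slc30a1 above Mtf1 in 16 of 16. Mt2 was above Slc39a14 in 10 of 16 livers only, so that these neighbours did not keep their order. By a count added after the data were seen, Mt1 and Mt2 together took 1.14% of the summed FPKM in LKO mouse 8, where Mt1 was the 27th and Mt2 the 32nd highest gene. In LKO mouse 4, they took 0.00359%, and Mt1 was the 2854th highest gene.

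Within the runs of library numbers, the genotype difference of the metallothioneins changed direction. The Fgl1 LKO mean of Mt1 on the log2 scale was higher by 1.54 in the run 48 to 55 (1 Fgl1 LWT and 3 Fgl1 LKO mice) and by 2.35 in the run 69 to 72 (2 and 2 mice). In the run 60 to 64 (2 and 3 mice), the difference was -0.82. For Mt2, the differences in the same order of library numbers were 1.97, -1.13 and 3.08, and for Slc39a14 they were 0.17, -0.38 and 1.57. Those of Slc30a1 were small, at -0.10, 0.04 and -0.13, and those of Mtf1 were 0.23, 0.04 and 0.20. No test was made within runs, which hold 1 to 3 mice of a genotype.

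Mt1 and Mt2 varied together over the mice, and Slc39a14 varied with both. Over the 16 livers, Mt1 and Mt2 had a Pearson r of 0.99 (permutation test, two-sided, p = 1e-05, the smallest that 100000 resamples can give, adjusted p = 0.00035 over 35 relations) and a Spearman rho of 0.97 (permutation p = 1e-05). The relation was as tight within Fgl1 LWT livers (r = 0.98, exact p = 0.000298, n = 8) and within Fgl1 LKO livers (r = 0.995, exact p = 2.48e-05, n = 8). It was 0.98 without the 2 mice farthest from the Mt1 median and 0.99 after the mean of each run had been subtracted.

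Slc39a14 had an r of 0.81 with Mt1 (permutation p = 0.00015, adjusted p = 0.00175, rho = 0.69 with permutation p = 0.00384) and of 0.83 with Mt2 (permutation p = 6e-05, adjusted p = 0.00105, rho = 0.70 with permutation p = 0.00326). Without the 2 mice farthest from the median of the metallothionein, r fell to 0.61 (permutation p = 0.0191) with Mt1 and to 0.65 (permutation p = 0.011) with Mt2. Among the Fgl1 LKO livers, r was 0.93 with both Mt1 (exact p = 0.00151, n = 8) and Mt2 (exact p = 0.000595, n = 8). Among the Fgl1 LWT livers, r was 0.55 with Mt1 (exact p = 0.184, n = 8) and 0.58 with Mt2 (exact p = 0.158, n = 8), and the difference between the genotypes was not tested. After subtraction of the run means, r was 0.84 with Mt1 and 0.87 with Mt2.

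The other 7 pairs among the 5 genes did not pass the adjusted threshold. Mt1 had an r of 0.37 with Slc30a1 (permutation p = 0.153, adjusted p = 0.312) and of 0.29 with Mtf1 (permutation p = 0.273, adjusted p = 0.368). Slc39a14 and Mtf1 had an r of 0.44 (permutation p = 0.0922, adjusted p = 0.269), and Slc30a1 and Mtf1 an r of -0.39 (permutation p = 0.14, adjusted p = 0.312).

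**Figure D2:**
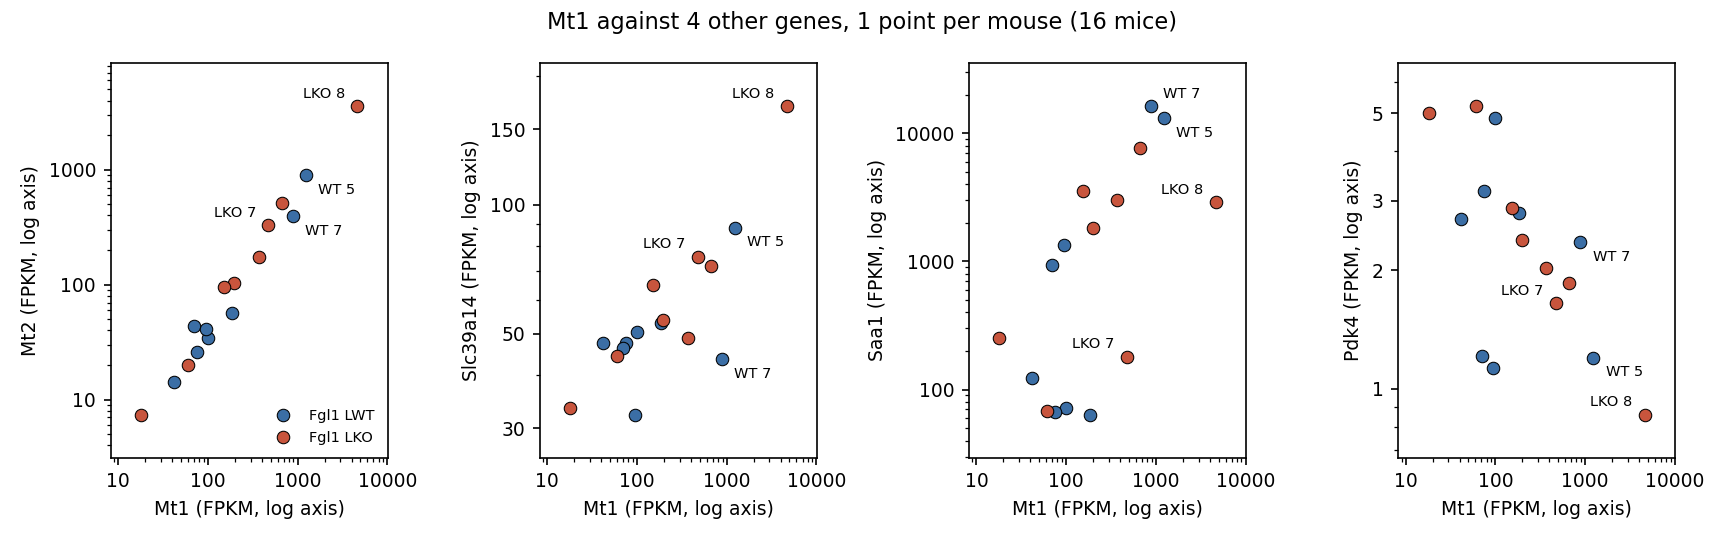
Mt1 (horizontal, FPKM, log axis) against Mt2, Slc39a14, Saa1 and Pdk4 (vertical, FPKM, log axes) in 16 livers, with 1 point per mouse (blue, Fgl1 LWT, labelled WT; red, Fgl1 LKO). Mt2 follows Mt1 along 1 line (r = 0.99), LKO 8 is at the top of Mt1, Mt2 and Slc39a14 with 2890 FPKM of Saa1, and LKO 7 has 473.58 FPKM of Mt1 with 181 FPKM of Saa1.

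The same 5 genes were set against 5 index genes: Saa1 (serum amyloid A) and Lcn2 (lipocalin) of the acute phase, Tsc22d3 and Per1, which respond to glucocorticoids, and Pdk4, which rises in fasting. Of these 25 relations, 6 passed the adjusted threshold, and these were the relations of Mt1 and Mt2 with Saa1, Lcn2 and Pdk4. With Saa1, r was 0.65 for Mt1 (permutation p = 0.00675, adjusted p = 0.0264, rho = 0.64 with permutation p = 0.00893) and 0.70 for Mt2 (permutation p = 0.0031, adjusted p = 0.0155, rho = 0.71 with permutation p = 0.00289). With Lcn2, r was 0.71 for Mt1 (permutation p = 0.00211, adjusted p = 0.0148, rho = 0.68 with permutation p = 0.00471) and 0.72 for Mt2 (permutation p = 0.00184, adjusted p = 0.0148, rho = 0.72 with permutation p = 0.00291). These relations were 0.72 and 0.68 with Saa1 and 0.80 and 0.70 with Lcn2 for Mt1 and Mt2 without the 2 mice farthest from the metallothionein median. After subtraction of the run means, they were 0.67 for both metallothioneins with Saa1 and 0.68 and 0.65 with Lcn2.

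Within genotypes, Mt1 had an r with Saa1 of 0.78 in the Fgl1 LWT livers (exact p = 0.0242, n = 8) and of 0.56 in the Fgl1 LKO livers (exact p = 0.159, n = 8). The adjusted p of Mt1 with Saa1 rose to 0.0679 without LWT mouse 5, to 0.0563 without LWT mouse 7 and to 0.0511 without LKO mouse 3. The livers did not follow Saa1 one by one. LWT mice 5 and 7 had 13092 and 16268 FPKM of Saa1 and high metallothioneins, whereas LKO mouse 8, with the highest metallothioneins, had 2890 FPKM of Saa1. LKO mouse 7 combined 473.58 FPKM of Mt1 with 181 FPKM of Saa1 and 8.44 FPKM of Lcn2. Slc39a14 had an r of 0.33 with Saa1 (permutation p = 0.212, adjusted p = 0.334) and of 0.34 with Lcn2 (permutation p = 0.195, adjusted p = 0.326).

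With Pdk4, r was -0.65 for Mt1 (permutation p = 0.00678, adjusted p = 0.0264, rho = -0.61 with permutation p = 0.0131) and -0.69 for Mt2 (permutation p = 0.00297, adjusted p = 0.0155, rho = -0.70 with permutation p = 0.00322). This relation rested in part on the extreme mice. Without the 2 farthest from the median, r was -0.43 for Mt1 (permutation p = 0.128) and -0.53 for Mt2 (permutation p = 0.0516), and after subtraction of the run means it was -0.49 and -0.52. In the Fgl1 LKO livers, r was -0.96 for Mt1 (exact p = 0.000273, n = 8), and in the Fgl1 LWT livers it was -0.26 (exact p = 0.516, n = 8), a difference that was not tested. For Mt1, the adjusted p rose above 0.05 when LWT mouse 5 (0.0673), LKO mouse 3 (0.0511), LKO mouse 4 (0.106) or LKO mouse 8 (0.138) was left out, and for Mt2 without LKO mouse 4 (0.0544) or LKO mouse 8 (0.0747). Neither metallothionein passed with Tsc22d3 or Per1, also under the alternatives, but r depended on the run. With Per1, r was -0.10 for Mt1 and -0.14 for Mt2, and 0.53 for both after subtraction of the run means. With Tsc22d3, r was -0.32 for both, and 0.01 and 0.06 after that subtraction. Slc30a1 had an r of -0.50 with Tsc22d3 (permutation p = 0.0474, adjusted p = 0.151). This r was -0.38 without the 2 mice farthest from the Slc30a1 median (permutation p = 0.183). In 21 of 24 alternatives the relation did not pass, among them rescaling to an equal sum (r = -0.34, adjusted p = 0.467). It passed without the run 36 to 38 (r = -0.71, adjusted p = 0.0471) and without LWT mouse 2 (r = -0.67, adjusted p = 0.024). After subtraction of the run means, r was -0.66 (adjusted p = 0.0259). That permutation did not keep mice within their runs, so that its p may be too small.

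**Figure D3:**
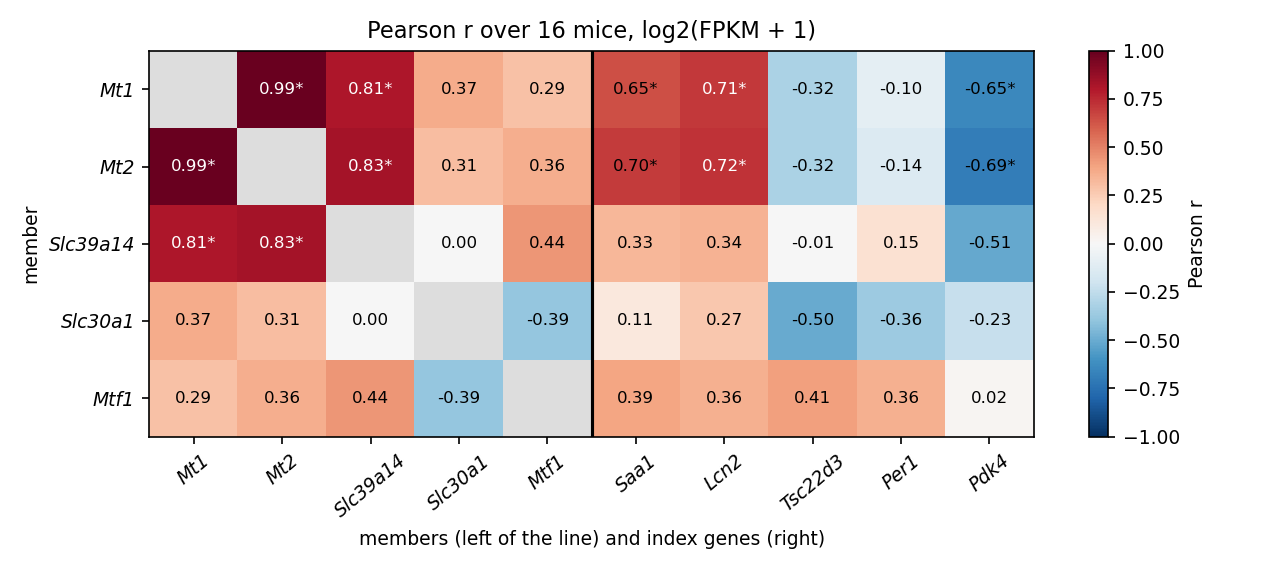
Pearson r over 16 livers, on log2(FPKM + 1), of the 5 genes with each other (left of the line) and with 5 index genes (right), where an asterisk marks an adjusted p under 0.05 over 35 relations and grey cells are a gene with itself. The relations that passed were those among Mt1, Mt2 and Slc39a14 and those of Mt1 and Mt2 with Saa1, Lcn2 and Pdk4.

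The genes most like each of the 5 over the 16 livers were sought among 10032 other genes that averaged 1 FPKM or more, and r is given as a description. For Mt1, they were Ang (0.895), Slc37a1 (0.892), Serpina3n (0.881), Serpina10 (0.879) and Yju2 (0.867). For Mt2, they were Slc37a1 (0.933), Ang (0.924), Serpina10 (0.909), Cpne8 (0.903) and Fgb (0.896), which encodes the fibrinogen beta chain. Ang encodes angiogenin, a secreted ribonuclease, and Serpina3n and Serpina10 encode secreted serpins. For Slc39a14, they were Myo18a (0.948), Ptpn1 (0.945), Ttpal (0.942), Hnf4a (0.939), a transcription factor of hepatocytes, and St3gal4 (0.926). All 5 genes listed for each of Mt1, Mt2 and Slc39a14 were highest in LKO mouse 8, and without this mouse, a choice made after the data were seen, their r lay between 0.811 and 0.885 for Mt1, 0.846 and 0.921 for Mt2, and 0.855 and 0.911 for Slc39a14. For Slc30a1, the nearest genes were Ifnar2 (0.765), Ccdc125 (0.751), Sertad3 (0.735), Cyp39a1 (0.734) and Atp6v1e1 (0.722). For Mtf1, they were Max (0.911), Bag3 (0.889), a co-chaperone gene, Spty2d1 (0.886), Mis12 (0.877) and AW209491 (0.876), all highest in LKO mouse 5. None of the genes named here passed an adjusted limma p of 0.05 between genotypes.

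The 2 remaining mouse metallothionein genes were almost silent. Mt3 and Mt4, known from brain and from stratified epithelia, were listed at 0 in 15 of 16 livers each. The exception was LKO mouse 8 for both, with 0.42 FPKM of Mt3 and 2.59 FPKM of Mt4, and no count of reads stands behind these values.

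Of the 10 ZnT genes, 8 passed the filter, and none passed an adjusted or an unadjusted p of 0.05 between genotypes. Their median log2 fold change was 0.02, against 0.01 for all genes tested. The highest were Slc30a9 (15.93 ± 1.28 FPKM in Fgl1 LWT and 15.28 ± 1.14 FPKM in Fgl1 LKO livers, SD, n = 8), Slc30a5, which loads zinc into the secretory pathway (13.0 ± 3.74 and 16.97 ± 5.9 FPKM, SD, n = 8), and Slc30a10, a manganese exporter (13.44 ± 2.11 and 13.72 ± 2.34 FPKM, SD, n = 8). Slc30a5 differed by 0.33 on the log2 scale (SE 0.19), and its adjusted p from the limma fit across all genes was 0.709.

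Of the 14 ZIP genes, 13 passed the filter, with a median log2 fold change of 0.06. After Slc39a14, the highest were Slc39a7, which releases zinc from the secretory pathway (46.96 ± 5.99 FPKM in Fgl1 LWT and 49.47 ± 3.45 FPKM in Fgl1 LKO livers, SD, n = 8), and Slc39a1 (33.35 ± 4.49 and 37.55 ± 6.84 FPKM, SD, n = 8). None passed the adjusted threshold, and 2 of 13 had an unadjusted limma p under 0.05. These were Slc39a6 (log2 fold change 0.16, SE 0.07, unadjusted p = 0.0361, adjusted p = 0.696) and Slc39a10 (0.40, SE 0.19, unadjusted p = 0.0474, adjusted p = 0.696). Slc39a10 lay between 0.45 and 1.06 FPKM in Fgl1 LWT livers and between 0.34 and 3.91 FPKM in Fgl1 LKO livers, where LKO mouse 8 had the highest value and the next mouse 1.68 FPKM. Over the 24 metallothionein, ZnT and ZIP genes that passed the filter, 2 had an unadjusted p under 0.05, which is near the 7.01% of all genes.

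**Figure D4:**
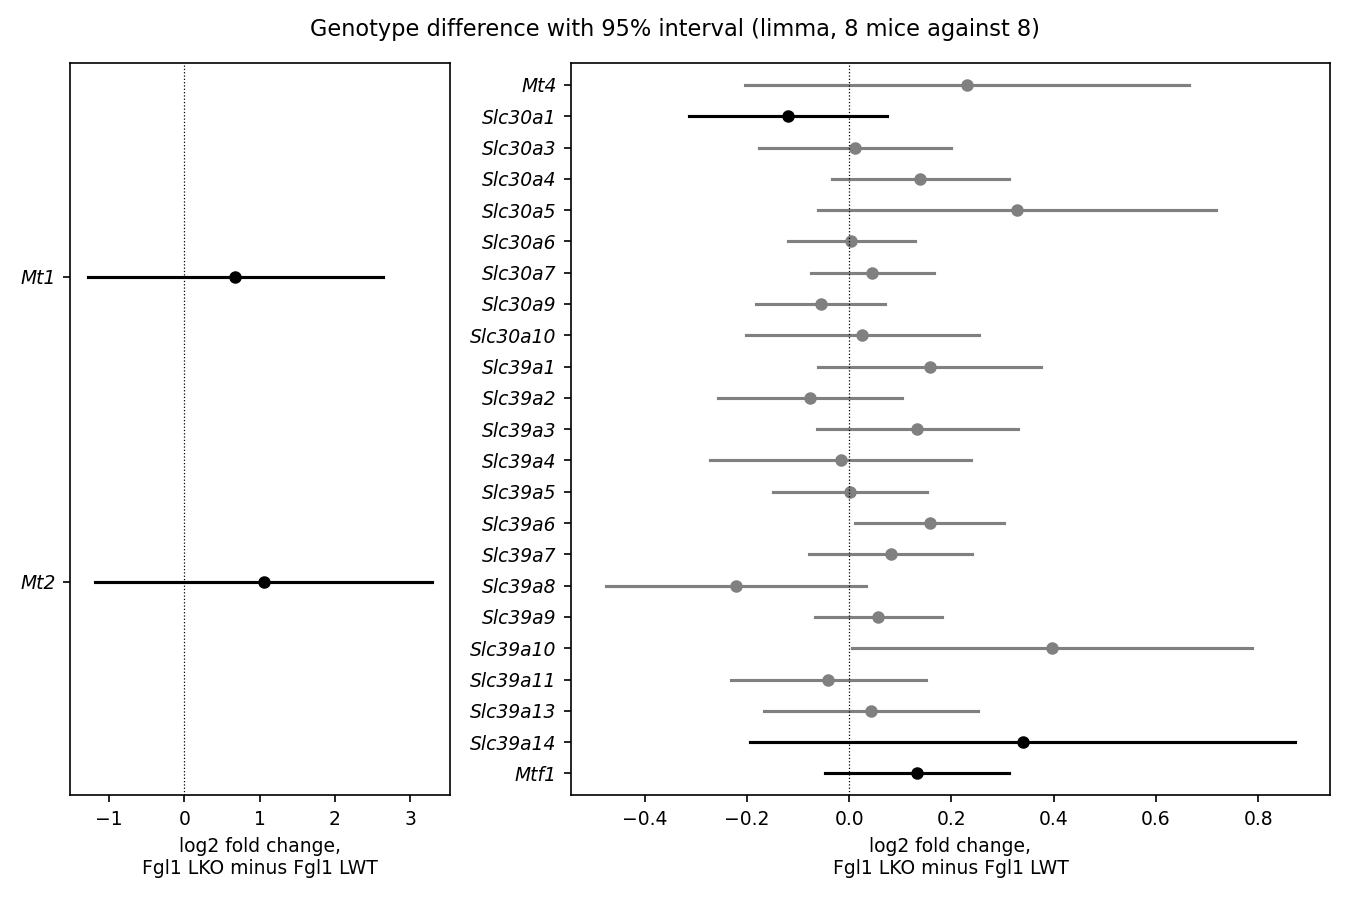
Log2 fold change between genotypes (Fgl1 LKO minus Fgl1 LWT, 8 mice against 8) with its 95% interval from limma for Mt1 and Mt2 (left) and for the other metallothionein, ZnT and ZIP genes that passed the filter and Mtf1 (right, with a narrower axis), the 5 genes of interest in black. The interval of Mt2 runs from -1.19 to 3.29 and that of Slc30a1 from -0.31 to 0.07, and only those of Slc39a6 and Slc39a10 leave out 0, before adjustment.

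Other genes known to depend on MTF1 varied over a narrower range than the metallothioneins, such as Ndrg1, which lay between 3.48 and 13.47 FPKM over the 16 livers. This holds for nearly every gene, as only 0.047% of all genes had a larger standard deviation within genotypes than Mt1. Of 4 genes known to depend on MTF1, none had an unadjusted p under 0.05 between genotypes, against 7.01% of all genes. Gclc, the catalytic subunit of glutamate-cysteine ligase, lay at 101.9 ± 34.9 FPKM in Fgl1 LWT and 104.9 ± 46.1 FPKM in Fgl1 LKO livers (SD, n = 8) and was highest in LKO mouse 8, at 202.94 FPKM. Selenow lay at 92.34 ± 12.9 and 81.87 ± 9.66 FPKM, and Ndrg1 at 8.57 ± 3.29 and 6.16 ± 1.58 FPKM (SD, n = 8).

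Metallothioneins also bind copper, and ZIP14 also carries iron and manganese. None of 10 genes of copper handling and none of 9 genes of iron and manganese transport had an unadjusted p under 0.05 between genotypes. Of all genes tested, only 7.01% had one. The median log2 fold changes of the 2 lists were -0.02 and -0.0046. Among them were Sod1 (1658 ± 90.7 FPKM in Fgl1 LWT and 1729 ± 178 FPKM in Fgl1 LKO livers, SD, n = 8), Cp, Atox1, Trf, Ftl1 and Fth1. The transferrin receptor gene Tfrc and the ferrireductase gene Steap3, named after their values were seen, were lowest in LKO mouse 8 (1.77 and 4.59 FPKM).

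Of 15 acute-phase genes, none had an unadjusted p under 0.05 between genotypes, against 7.01% of all genes, and their median log2 fold change was 0.12. Hpx lay at 5659 ± 4380 FPKM in Fgl1 LWT and 4813 ± 2020 FPKM in Fgl1 LKO livers, and Hp at 5100 ± 3830 and 5045 ± 2450 FPKM (SD, n = 8). Of 10 glucocorticoid-responsive genes, none passed the adjusted threshold, and 2 had an unadjusted limma p under 0.05, against 7.01% of all genes. The median log2 fold change of the list was 0.03, and 6 of the 10 were higher in Fgl1 LKO livers, against 55.8% of all genes tested. The 2 genes were Fkbp5, a co-chaperone of the glucocorticoid receptor (8.06 ± 2.9 FPKM in Fgl1 LWT and 16.32 ± 7.72 FPKM in Fgl1 LKO livers, SD, n = 8, log2 fold change 0.87, SE 0.26, unadjusted p = 0.00353, adjusted p = 0.696) and Cdkn1a, a cell cycle inhibitor (12.27 ± 8.96 and 18.93 ± 7.81 FPKM, SD, n = 8, log2 fold change 0.77, SE 0.35, unadjusted p = 0.0397, adjusted p = 0.696). Both were highest in LKO mouse 8, at 25.78 and 34.18 FPKM. The most abundant genes of this list, Tat (738.2 ± 299 and 731.8 ± 242 FPKM), Igfbp1 and Tsc22d3, had unadjusted p-values of 0.904, 0.855 and 0.709. Of 9 fasting-responsive genes, none had an unadjusted p under 0.05, among them Pck1 (882.7 ± 371 and 944.1 ± 218 FPKM) and G6pc. Of the 9, 8 were higher in Fgl1 LKO livers, against 55.8% of all genes tested. Their median log2 fold change was 0.24, against 0.01 for all genes tested.

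LKO mouse 8, which had the highest Mt1, Mt2 and Slc39a14, also had the highest summed level of Kupffer cell, cholangiocyte, adipocyte and lymphocyte markers. Its summed level of 7 Kupffer cell markers was 193 FPKM, against 73.13 to 153.2 FPKM in Fgl1 LWT livers, an Fgl1 LKO median of 136.9 FPKM and 165.1 FPKM in the next highest Fgl1 LKO liver, and Clec4f, Cd5l, Timd4 and C1qa were highest in it. Between genotypes, 2 of these 7 markers had an unadjusted p under 0.05 in the limma fit across all genes, Vsig4 (0.0309) and Adgre1 (0.0272), against 7.01% of all genes, and none had an adjusted one. All 7 were higher in Fgl1 LKO livers, against 55.8% of all genes tested, with a median log2 fold change of 0.25 against 0.01 over all genes. The 5 cholangiocyte markers of LKO mouse 8 summed to 261.6 FPKM, of which Spp1 gave 255.09, against 24.68 to 56.06 FPKM in Fgl1 LWT livers, an Fgl1 LKO median of 59.69 FPKM and 83.47 FPKM in the next highest Fgl1 LKO liver. Epcam (3.35 FPKM) was also highest in this mouse, but Krt19 (1.83 FPKM), Krt7 (0.43 FPKM) and Sox9 (0.9 FPKM) were not. Of its adipocyte markers, Fabp4 was at 45.05 and Cidec at 7.04 FPKM (52.09 FPKM in sum), and Adipoq and Plin1 were listed at 0. Its lymphocyte markers summed to 2.25 FPKM, the highest of 16, and its neutrophil markers (16.24 FPKM), sinusoidal endothelial markers (71.98 FPKM), stellate cell markers (110.8 FPKM) and pancreatic acinar markers (12.06 FPKM) lay inside the range of the other livers. Its hepatocyte markers summed to 23050 FPKM, the 15th of 16. The part of these differences in its metallothionein level was not tested.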

How the data were processed

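Liver mRNA of 8 Fgl1 LWT and 8 Fgl1 LKO mice was sequenced by the authors (paired-end reads of the DNBSEQ platform, from a strand-specific library). The deposited values are FPKM per gene, which the authors made after alignment with HISAT (mm39) and Bowtie2, and they are given to 2 decimals. Tool versions and the counting step are not given in the sources used here. Because FPKM are not counts and the number of reads is unknown, no counting error is given.

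Values were compared on log2(FPKM + 1) in the genes that averaged 0.1 FPKM or more, with limma 3.58.1 (R 4.3.3, trend), two-sided, with Benjamini-Hochberg adjustment over 12770 genes and a threshold of 0.05. Exact tests used all 12870 assignments of the mice to genotypes, and correlations 100000 resamples (exact within a genotype), adjusted over 35 relations. The steps were tested on simulated data. Python 3.11.15 with numpy 2.4.6 and pandas 2.3.3 was used. The summed FPKM of a mouse lay between 673153 and 786188. The labels name 1 mouse per library, and no libraries were identical.

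The genes, lists and tests were chosen with earlier results of these data known. Genes named are the 5 genes of interest, Fgl1, 5 index genes, the 3 highest genes of each list of the main pathways and any list gene with an unadjusted p under 0.05, and the 5 genes most like each gene of interest. The result of 1 gene is not reported here. Marker lists are given as sums. Promoters are those of RefSeq (GRCm38.p6 table), matched by sequence to GRCm39. A promoter entry was found for 4 of the 5 genes, all but Slc39a14. Alternatives were other pseudocounts (0.1 and 0.01), filters, scalings, covariates, array weights, a replicate block and the removal of single mice.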

Additional observations from a re-analysis of the deposited data

Results flagged for a closer look

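Among 37 named genes, a mouse was marked where its distance to the nearest mouse of its genotype exceeded the 95% limit of Dixon for 8 mice (a share of the range of the group), on the log2(FPKM + 1) scale and, for the 5 genes of interest, also on the FPKM scale, which was added after the data were seen. On the log2 scale this gave 5 cases in 74 groups of 8, and chance gives about 1 in 20 (3.7). On the FPKM scale it gave 5 cases in 10 groups, but FPKM values are skewed towards high values, so that the rate of 1 in 20 does not hold there.

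On the FPKM scale, LKO mouse 8 stood apart in Mt1 (4643.9 FPKM, next 668.1), in Mt2 (3571.1 FPKM, next 512.04) and in Slc39a14 (169.96 FPKM, next 75.6), and LWT mouse 5 stood apart in Mt2 (896.08 FPKM, next 394.81) and in Slc39a14 (88.41 FPKM, next 52.87). On the log2 scale, none of the 5 genes of interest had such a mouse. Mt4 was marked in LKO mouse 8 (2.59 FPKM) on the log2 scale, but the other 7 Fgl1 LKO mice were at 0 and the gene passed the filter only through this mouse, so that the filter fixed this case.

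The remaining cases were on the log2 scale. LWT mouse 5 had the highest Fgl1 LWT value of the zinc transporter gene Slc30a5 (21.88 FPKM, next 13.55). Per1 was lowest in LKO mouse 7 (1.36 FPKM, next 3.92), the copper chaperone gene Atox1 in LKO mouse 5 (165.07 FPKM, next 211.27) and Pck1, of gluconeogenesis, in LWT mouse 7 (202.82 FPKM, next 560.44).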

How the results depend on the processing

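None of the 5 genes was called between genotypes under any of 30 alternatives, and each kept the sign of its log2 fold change in all 29 fits: 0.08 to 1.22 for Mt1, 0.39 to 1.64 for Mt2, 0.14 to 0.47 for Slc39a14, -0.16 to -0.05 for Slc30a1 and 0.09 to 0.19 for Mtf1, with smallest unadjusted limma p-values of 0.173, 0.115, 0.0703, 0.0988 and 0.078. With Saa1 as a covariate, the log2 fold change was 0.28 for Mt1 and 0.57 for Mt2, and without the run 36 to 38 it was 0.37 and 0.53. Over all genes, 1 was called with rescaling to an equal sum, with the run of library numbers as a term, with Saa1 as a covariate, without the run 36 to 38, and with the replicate block, 0 when any single mouse was left out, and 895 at an unadjusted p under 0.05. Under the replicate block, 0 of the 5 genes were called. Mice with the same number had a mean correlation of 0.0728 (over 0.1 in 3 of 8 pairs, from -0.161 to 0.446), against -0.00982 for different numbers. This difference was not tested, and the numbers were not taken as pairs in the main fit.

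Leaving out each mouse gave r of 0.98 to 0.99 for Mt1 with Mt2, 0.69 to 0.90 for Mt1 with Slc39a14, 0.74 to 0.90 for Mt2 with Slc39a14, 0.60 to 0.70 for Mt1 with Saa1, 0.65 to 0.76 for Mt2 with Saa1, 0.66 to 0.77 for Mt1 with Lcn2, 0.67 to 0.80 for Mt2 with Lcn2, -0.75 to -0.55 for Mt1 with Pdk4 and -0.79 to -0.61 for Mt2 with Pdk4. The relation of Mt1 with Pdk4 did not pass without the run 36 to 38 (r = -0.64, adjusted p = 0.0637) or after subtraction of the run means (r = -0.49), nor did that of Mt2 with Pdk4 after the latter (r = -0.52). The cause was not tested. Of 19 relations not given one by one, 9 changed sign under some alternative and 1 (Slc39a14 with Pdk4, without LWT mouse 8) passed. The unknown number of reads limits the values of Mt3 and Mt4.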

Other observations

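The following values were chosen after the data were seen. The ratio of Mt2 to Mt1 FPKM lay between 0.31 and 0.769 and was below 1 in all 16 livers. Its median was 0.386 in Fgl1 LWT and 0.579 in Fgl1 LKO livers (exact permutation test, two-sided, p = 0.112, n = 8 each). In the 8 livers with the lowest Mt1 the median ratio was 0.378 (0.331 to 0.632), and in the 8 with the highest Mt1 it was 0.612 (0.31 to 0.769), so that both sets overlapped.

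Among the genes that passed the filter also without their highest mouse, 23 were metallothionein, ZnT and ZIP genes, and Mt4 was not among them. LKO mouse 8 held the highest value of 6 of these 23 (Mt1, Mt2, Slc30a3, Slc39a1, Slc39a10 and Slc39a14) and of 12.7% of all 12667 such genes. LKO mouse 5 held the highest value of 4 of the 23 (Slc30a4, Slc30a5, Slc30a7 and Slc39a6) and of 4.88% of all such genes. Slc39a8, which encodes the importer most like ZIP14, was lowest in LKO mouse 8 (3.81 FPKM, with a mean of 7.93 ± 1.31 FPKM in Fgl1 LWT and 6.72 ± 1.39 FPKM in Fgl1 LKO livers, SD, n = 8). Of 15 acute-phase genes, LKO mouse 8 held the highest value of 3, Steap4 (385.75 FPKM), Socs3 (14.84 FPKM) and Il1rn (2.05 FPKM). The other 12 were highest in LWT mouse 5 or 7, and the summed level of the list in LKO mouse 8 (23330 FPKM) ranked 4 of 16. Genes of the fasting-responsive list went both ways in LKO mouse 8. The hepatokine gene Fgf21 was highest in it (8.31 FPKM), whereas Pdk4 (0.86 FPKM) and Ppargc1a (0.39 FPKM) were lowest in it.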
